A study of Mus musculus with 18 samples.

Results

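BV2 is an immortalised line of mouse microglia, the resident macrophages of the brain. Its cytoplasmic RNA was compared between cells exposed to 10 µM oxyhemoglobin for 12 h and untreated cells at 0 h. The rule took every gene with a mean count of at least 10 in either of these 2 cytoplasmic columns, which gave 11351 of 55487 gene identifiers (20.5%). Cytoplasm was the supernatant of a hypotonic lysis with the detergent NP-40, after trypsin detachment and pelleting of the nuclei, per the labels' protocols. Cytoplasmic libraries after 24 h of the same treatment, and nuclear libraries of the pelleted nuclei at 0 and 12 h, are used beside them. Each of the groups had 3 libraries, and the deposited table gives 1 mean per group. All cells come from 1 line grown in culture, with no blood, neurons or other brain cells. No untreated 12 h group is among the samples, so time in culture and treatment cannot be told apart.

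Oxyhemoglobin is the oxygen-carrying form of the red cell pigment, and microglia meet it when blood enters brain tissue. Heme released from it is broken down by heme oxygenase to iron, carbon monoxide and biliverdin, and its oxidation exposes cells to reactive oxygen species. Microglia answer danger signals through Toll-like and interleukin-1 receptors, which act through NF-kB and AP-1 to switch on cytokine and chemokine genes. Messenger RNA must leave the nucleus to be translated, so the cytoplasmic pool is the one that ribosomes can use.

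Every value is a ratio of 2 means with no spread between libraries, so no p-value or standard deviation is given. Counts were scaled to library size (scaled CPM) by the trimmed mean of M-values within the cytoplasmic columns. To be called, a gene needed a change of 2-fold or more and a 95% counting interval that left out a ratio of 1. That interval covers counting error only, not differences between cultures, and reads without molecular identifiers are not independent molecules. Fewer cells carrying an RNA and less of it per cell cannot be told apart. Values at 0, 12 and 24 h are scaled CPM in that order throughout, and they are not comparable between genes of different length. The labels list 3 libraries per group, but the treatment protocol speaks of a single replicate treated for 12 or 24 h, and it is not stated whether the libraries are separate cultures.

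The 3 libraries together held 22379595 counts at 0 h and 16537318 at 12 h. One property of the table limits what it can show. Among 311 protein-coding genes in which no exonic base belongs to a single annotated transcript, 306 had a count of 0 in both columns. Among genes with several transcripts, 17.1% passed the count limit where under 20% of exonic bases were in a single transcript, against 58.3% where 50 to 80% were. Some defining microglial genes had almost no counts: Csf1r, Itgam and Cx3cr1 stood under 5 counts in both columns, and Aif1 was listed at 0 at 12 h. Below, a gene with under 50% of such sequence is marked partly counted, and a low count of such a gene does not show that it was not expressed. A gene with at least 20% of its sequence shared with another gene is marked shared sequence. The microglial and macrophage markers that were counted went both ways at 12 h. Cd53 read 1126, 1363 and 1017, and Spi1, a factor that defines the macrophage lineage, 193, 311 and 253. The partly counted Cd68 also rose (2.17, 24.5 and 27.6). Laptm5 fell, with 580.5, 309 and 275, and so did Adgre1, with 48.9, 22.8 and 16.5. Ptprc (26.8, 16.2 and 15.99) and Tyrobp (2.08, 0.4998 and 0.0978) fell as well.

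At 12 h, 1194 genes were called higher (10.5%) and 1101 lower (9.7%), 20.2% in either direction. The median log2 ratio of all genes compared was -0.07. Larger changes were mostly increases: 395 genes were at least 4-fold higher (3.48%) and 188 at least 4-fold lower (1.66%). At 16-fold or more the counts were 77 higher and 7 lower. Among the 8838 protein-coding genes compared, 618 were called higher (6.99%) and 871 lower (9.86%). Of the genes compared, 571 reached the count limit only at 12 h and 1225 only at 0 h. That limit was set on counts before scaling, and the libraries held 16537318 counts at 12 h against 22379595 at 0 h. The part of this depth in the difference was not tested. Of all called genes 52.0% were higher. With the deposited TPM values the counts were 372 higher and 2270 lower (14.1% higher), with the median of all genes at -0.54, and after leaving out genes under 200 bases 36.4% were higher and the median was -0.26. Gene groups are therefore read against the median of all genes.

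**Figure D1:**
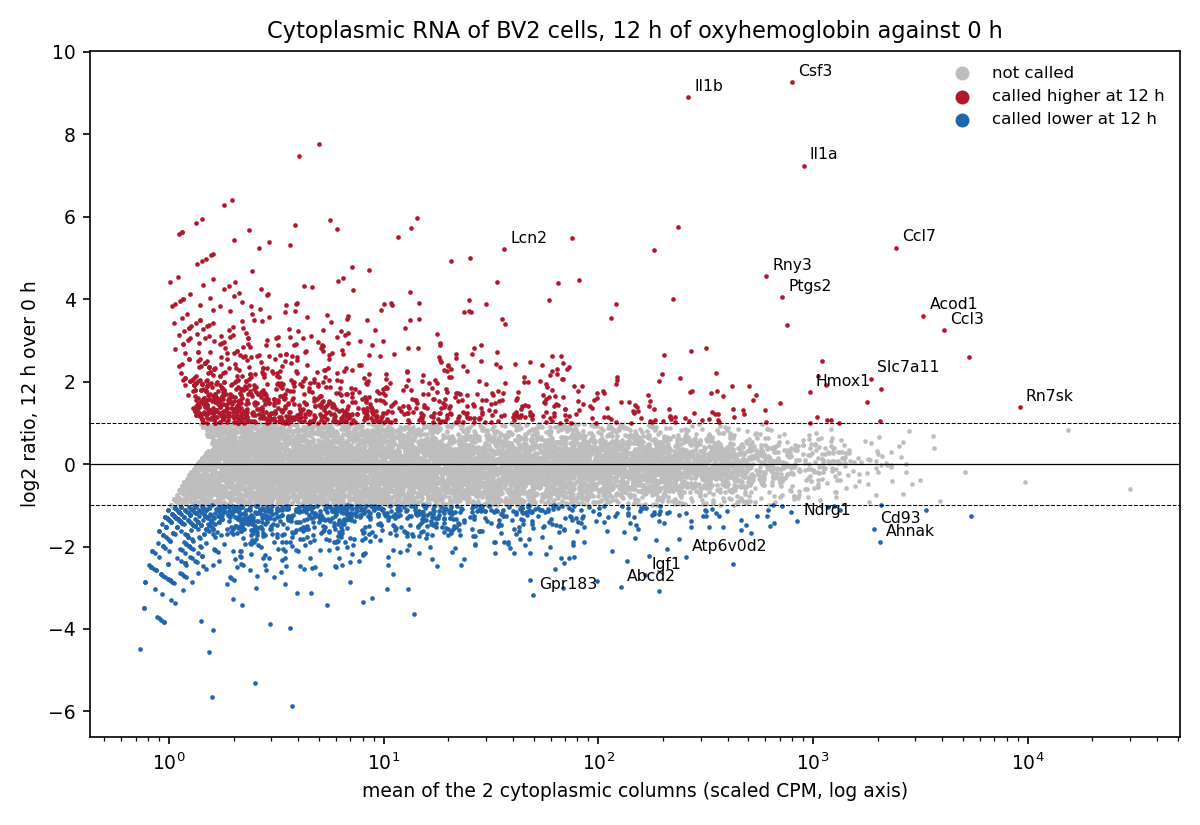
Log2 ratio of cytoplasmic RNA at 12 h over 0 h against the mean of the 2 columns in scaled CPM (log axis), 1 point per gene with reads in both columns; dashed lines mark 2-fold. The highest points are Csf3 and Il1b, and the ratios of genes called higher reach further from 0 than those of genes called lower.

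Among genes with reads in both columns, the highest ratios were those of 2 cytokine genes. Csf3 (GRCm38 chromosome 11, 98701263 to 98703629), which encodes granulocyte colony-stimulating factor, had 2.58, 1596 and 603 scaled CPM at 0, 12 and 24 h. That is 618-fold higher at 12 h (log2 ratio 9.27, interval 8.90 to 9.67), and the 24 h value lay between the other 2. Il1b (chromosome 2, 129364570 to 129371139), encoding interleukin-1 beta, had 1.09, 522 and 62.1, a log2 ratio of 8.91 (interval 8.33 to 9.55). Its neighbour Il1a (chromosome 2, 129299610 to 129309972), interleukin-1 alpha, had 11.9, 1798 and 424 (log2 ratio 7.24, interval 7.07 to 7.42). Both interleukin-1 RNAs were several times lower at 24 h than at 12 h, though above 0 h. The receptor antagonist Il1rn, which blocks the interleukin-1 receptor, also rose: 7.06, 155 and 79.3 (log2 ratio 4.46). Il1f9, another interleukin-1 family agonist, read 0.226, 11.9 and 8.75.

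Among the interleukin-1 family, its receptors and the inflammasome, 15 of 23 genes passed the count limit, and 5 were called higher and 0 lower (median log2 ratio 0.30). The 5 were Il1b, Il1a, Il1f9, Il1rn and Casp4, a caspase that senses bacterial lipopolysaccharide inside the cell. Casp1, Pycard and Gsdmd, whose products process and release interleukin-1 beta, were not called. Casp1, the protease that matures interleukin-1 beta, had a log2 ratio of 0.30, and the adaptor Pycard -0.45 (interval -1.21 to 0.28). Gsdmd, the pore-forming gasdermin D, had -0.23 and was partly counted.

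In the next families the ligands and the receptors were each called in both directions. Among cytokines and receptors of the interleukin-6, 10 and 12 families, 17 of 31 genes passed the count limit, and 10 were called higher and 3 lower (median log2 ratio 1.25). Il6 had 0.181, 7.18 and 3.47 (log2 ratio 5.31, interval 3.91 to 7.21), Il23a, a subunit of interleukin-23, 2.44, 13 and 6.55 and Osm, oncostatin M, 48.1, 196 and 127. Il15, interleukin-15, was lower and partly counted (log2 ratio -3.04). Among the receptors, Il2rg, the chain shared by several interleukin receptors, was higher (1.25, shared sequence). In contrast Il6ra, the interleukin-6 binding receptor, was lower, with 99.2, 31.8 and 32.8 (log2 ratio -1.64, interval -1.78 to -1.50), and its partner Il6st had -0.74, short of 2-fold. Il17ra, an interleukin-17 receptor chain, was lower too (-1.35).

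CC chemokine genes that passed the count limit were nearly all higher. Of the CC chemokines, 8 of the 9 that passed (of 19 listed) were called higher and 0 lower, with a median log2 ratio of 2.18; it was 2.06 in the nucleus and 1.54 in cytoplasm at 24 h. Ccl7, which attracts monocytes, had 125, 4759 and 2685 (log2 ratio 5.25, interval 5.20 to 5.31). Ccl3 and Ccl4, the macrophage inflammatory proteins, had 776, 7345 and 6115 and 214, 791 and 686. Ccl5, which attracts T cells, read 6.34, 67 and 45.3, and Ccl9 393, 1724 and 987. Ccl2, the main monocyte attractant, had a log2 ratio of 2.18 and was partly counted. The neutrophil attractant Cxcl2 had 4.86 from only 4.55% single-transcript sequence, and Cxcl10, an interferon-induced attractant, 0.83, short of the size threshold and partly counted.

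**Figure D2:**
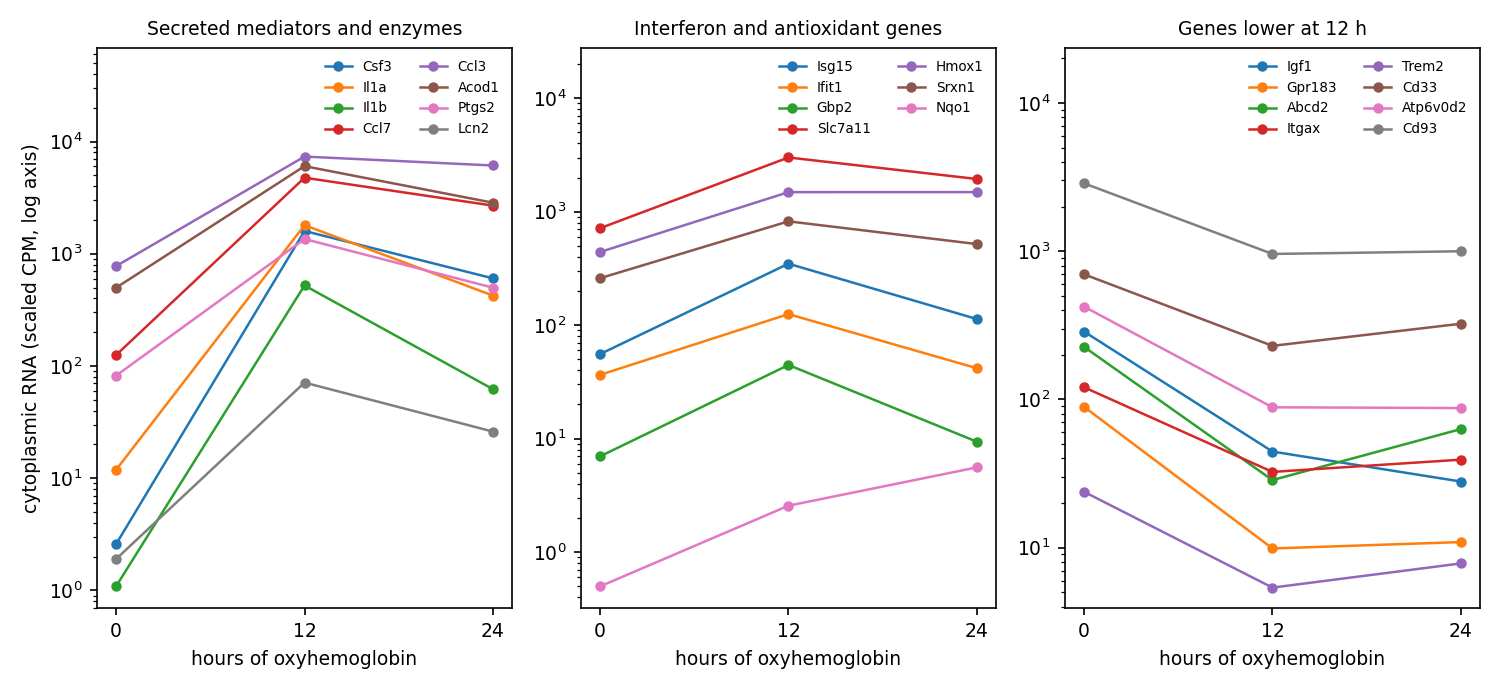
Cytoplasmic RNA of 23 genes at 0, 12 and 24 h of oxyhemoglobin in scaled CPM (log axis); each point is the authors' mean of 3 libraries, with no error bar because no per-library values were used. Il1b falls from 522 at 12 h to 62.1 at 24 h, while Hmox1 is at 1488 at both times.

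Ligands and receptors of the tumour necrosis factor family showed both directions. Among these ligands and receptors, 20 of 35 genes passed the count limit, and 6 were called higher and 3 lower (median log2 ratio 0.24). Lta, lymphotoxin alpha, read 1.4, 20.4 and 24.9. Tnfrsf1b, the type 2 receptor for tumour necrosis factor, rose from 478 to 1814 and stood at 875 at 24 h (log2 ratio 1.93). Its relative Tnfrsf1a, the type 1 receptor, had -0.03 and was partly counted. Tnf itself went from 0.453 to 28.2, but only 10.8% of its exonic sequence was in a single transcript. Tnfsf13b, the B cell survival factor BAFF, was lower (6.93, 1.25 and 2.1; log2 ratio -2.47).

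Growth factor genes also went both ways, and 13 of 40 listed passed the count limit, 4 higher and 3 lower. Csf2, granulocyte-macrophage colony-stimulating factor, had 0.679, 5.62 and 4.6 (log2 ratio 3.05), and of 6 colony-stimulating factor genes and receptors compared 2 were called higher and 0 lower. Edn1, the vasoconstrictor endothelin-1, had 0.362, 4.94 and 1.91 (log2 ratio 3.77). Igf1, a trophic factor that microglia secrete, had the lowest ratio of that list, from 287 to 44.5 and 27.9 (log2 ratio -2.69, interval -2.80 to -2.58). The binding protein gene Igfbp4 fell with it (-1.89). Hbegf and Tgfb1 had 0.80 and 0.64, below the size threshold.

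Genes of lipid and small-molecule mediators were called in both directions. Among prostaglandin and leukotriene genes, 15 of 27 genes passed the count limit, and 4 were called higher and 5 lower (median log2 ratio -0.03). Ptgs2, the inducible cyclooxygenase that starts prostaglandin synthesis, had 82, 1353 and 498 (log2 ratio 4.05, interval 3.98 to 4.12), and Ptges, which makes prostaglandin E2, 21.6, 107 and 119. Among arginine, nitric oxide and itaconate genes, 13 of 18 genes passed the count limit, and 3 were called higher and 1 lower (median log2 ratio -0.02). Acod1, which makes the antimicrobial metabolite itaconate, had 497, 6035 and 2848 (log2 ratio 3.60). Nos2, the inducible nitric oxide synthase, read 6.61, 46.2 and 52.7 and was partly counted. Arg1, arginase, which competes with it for arginine, was lower: 34, 7.81 and 3.23 (log2 ratio -2.12). The lower prostaglandin and leukotriene genes included lipoxygenase and leukotriene genes. Alox15 had a log2 ratio of -2.53, the leukotriene receptor Cysltr1 -1.36, and the partly counted Ltc4s -5.64 from few reads.

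Among matrix proteases and their inhibitors, 15 of 29 genes passed the count limit, and 4 were called higher and 2 lower (median log2 ratio -0.03). Mmp13, a collagenase, had 5.89, 123 and 20.4 (log2 ratio 4.39, interval 4.13 to 4.66), with most of the rise gone at 24 h. Among acute-phase and antimicrobial proteins, 7 of 21 genes passed the count limit, and 2 were called higher and 2 lower (median log2 ratio -0.28). Lcn2, lipocalin-2, which binds bacterial iron carriers, had 1.9, 71.1 and 26 (log2 ratio 5.22). Lyz2, lysozyme, had a log2 ratio of -0.88 (shared sequence). Plau, the urokinase protease, fell from 566 to 198, partly counted, and Timp2, a metalloprotease inhibitor, had -0.97.

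Among NF-kB subunits and inhibitors, 13 of 19 genes passed the count limit, and 3 were called higher and 0 lower (median log2 ratio 0.41). Nfkbia, the NF-kB inhibitor that NF-kB itself induces, had 78.6, 557 and 442 (log2 ratio 2.82, interval 2.75 to 2.90). The subunit gene Nfkb1 rose at a low level, 2.44, 7.68 and 6.84 (log2 ratio 1.65), and Rel and the partly counted Rela had 0.41 and 0.23. Among feedback regulators and mRNA decay factors, 30 of 36 genes passed the count limit, and 10 were called higher and 2 lower (median log2 ratio 0.52). The highest ratio was that of Zc3h12a, an RNase that degrades cytokine RNAs, with 18, 211 and 132 (log2 ratio 3.56). Socs3, which damps cytokine receptor signalling, had 70.0, 469 and 295, and the MAP kinase phosphatase Dusp5 92.3, 390.0 and 281. Tnfaip3, the ubiquitin-editing inhibitor A20, had 0.51 and was partly counted. Of 15 Dusp genes compared, 5 were called higher and 0 lower.

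Among immediate early factors, 25 of 38 genes passed the count limit, and 8 were called higher and 4 lower (median log2 ratio 0.20). Junb had 266, 788 and 549 (log2 ratio 1.56), Ier3, an early response gene, 330.4, 1869 and 1098 (2.50), and Cebpb, a partner of NF-kB at cytokine genes that is in another list, 122, 410.4 and 326 (1.75). Jun itself had -0.13, with an interval of -0.18 to -0.08. Maf, a factor of mature macrophages, was lower, with 74.2, 25.5 and 34 (log2 ratio -1.54). The Krüppel-like factors Klf2 and Klf4 were lower as well (-1.16 and -1.51).

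Among Toll-like and other pattern receptors with their adaptors, 24 of 37 genes passed the count limit, and 4 were called higher and 1 lower (median log2 ratio -0.01). Cd14, the lipopolysaccharide co-receptor, rose, with 179, 663 and 351 (log2 ratio 1.89). Tlr9, which binds unmethylated DNA, was just past the size threshold (44, 88 and 68.8; log2 ratio 1.0). Tlr4 and Tlr2, receptors for bacterial lipids, had -0.19 and 0.00. The list's median relative to all genes turned below 0 with TPM and with a limit of 30 counts.

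Promoter windows from RefSeq on GRCm38.p6, 250 bases before to 50 after each gene's start, matched 7448 of the genes compared. The AP-1 motif TGANTCA (both strands) was found in 16.6% of 169 promoters of genes at least 4-fold higher. It was found in 5.09% of all compared, 5.22% of genes at least 4-fold lower, and 7.93% of all 27025 promoters in the table. The NF-kB motif was found in 15.4%, 9.91%, 9.57% and 8.18% of the same sets. Of the 395 genes at least 4-fold higher, only these 169 had a promoter window. Over all called genes the contrast was smaller. AP-1 was found in 10.1% of 563 promoters of genes called higher and 6.97% of 717 of genes called lower, and NF-kB in 12.3% and 10.5%. The antioxidant response element TGACNNNGC had 24 matching promoters among genes at least 4-fold higher (14.2%) and was found in a similar share of all compared (15%). A match is a stretch of letters, not a site that was shown to be bound. The genes whose windows are printed were picked by hand. The windows below, the 250 bases before the start of strongly raised genes with the matches of 1 motif in capitals, show NF-kB (Il6, chr5:30012864-30013113, plus strand, and Nfkbia, chr12:55492648-55492897, minus strand) or AP-1 (Il1a, chr2:129309973-129310222, minus strand; Il1rn, chr2:24336610-24336859, plus strand; Mmp13, chr9:7272264-7272513, plus strand). Other motifs searched are left in lower case: the Il6 window also holds an AP-1 match 249 bases before the start, that of Nfkbia an antioxidant response element at 13 bases, and that of Mmp13 an interferon response motif at 146 bases.
Il6: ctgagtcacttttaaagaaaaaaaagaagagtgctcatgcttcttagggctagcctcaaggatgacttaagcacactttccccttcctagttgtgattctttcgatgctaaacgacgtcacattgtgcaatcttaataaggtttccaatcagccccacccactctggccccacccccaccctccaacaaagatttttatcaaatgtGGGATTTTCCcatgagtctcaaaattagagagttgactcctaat
Nfkbia: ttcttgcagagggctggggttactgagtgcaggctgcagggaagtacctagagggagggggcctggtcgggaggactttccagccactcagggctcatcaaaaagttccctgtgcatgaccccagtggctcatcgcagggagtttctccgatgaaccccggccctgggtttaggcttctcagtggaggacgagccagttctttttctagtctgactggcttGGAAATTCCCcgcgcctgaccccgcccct
Il1a: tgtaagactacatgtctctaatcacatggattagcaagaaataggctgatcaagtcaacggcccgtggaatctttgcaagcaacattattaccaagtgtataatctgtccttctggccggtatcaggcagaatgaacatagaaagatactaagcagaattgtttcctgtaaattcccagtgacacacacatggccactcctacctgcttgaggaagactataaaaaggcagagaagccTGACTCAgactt
Il1rn: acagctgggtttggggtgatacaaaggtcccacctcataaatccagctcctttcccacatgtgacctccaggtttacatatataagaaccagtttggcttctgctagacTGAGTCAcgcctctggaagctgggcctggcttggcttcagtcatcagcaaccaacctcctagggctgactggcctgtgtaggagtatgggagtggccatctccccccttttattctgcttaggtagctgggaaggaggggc
Mmp13: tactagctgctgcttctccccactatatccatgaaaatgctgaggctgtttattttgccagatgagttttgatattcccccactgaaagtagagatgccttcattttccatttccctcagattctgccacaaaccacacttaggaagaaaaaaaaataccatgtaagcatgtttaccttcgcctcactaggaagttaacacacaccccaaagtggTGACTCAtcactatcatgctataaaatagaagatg
The capitals begin 44 bases before the start in Il6, 29 in Nfkbia, 12 in Il1a, 141 in Il1rn and 35 in Mmp13.

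Among type I interferon response genes, 44 of 56 genes passed the count limit, and 11 were called higher and 0 lower (median log2 ratio 0.68), and at 24 h that median was -0.33. The nuclear median at 12 h was 0.72. Isg15, a ubiquitin-like protein, had 55.6, 348 and 113 (log2 ratio 2.65, interval 2.56 to 2.74). Ifit1 and Ifit3, which bind viral RNA or its partners, had 36.4, 125 and 41.7 and 26, 109 and 37.1 (Ifit3 with shared sequence), and the GTPase Gbp2 6.97, 44.5 and 9.39. Several others were under 2-fold: Ifit2 had a log2 ratio of 0.40, Usp18, which limits interferon signalling, 0.67, and Bst2 0.66. Irf7, the amplifying transcription factor, read 0.12 and was partly counted. The interferon response motif (both strands) was found in 5.51% of promoters of genes called higher, 3.21% of those called lower and 3.33% of all compared. At 4-fold or more it was found in similar shares of genes higher (6.51%) and of genes lower (6.09%). Its matches in the Ifit3 window (chr19:34583279-34583528, plus strand) begin 156 and 122 bases before the start, on the opposite strand, and the window also holds an AP-1 match, in lower case, at 56 bases.
Ifit3: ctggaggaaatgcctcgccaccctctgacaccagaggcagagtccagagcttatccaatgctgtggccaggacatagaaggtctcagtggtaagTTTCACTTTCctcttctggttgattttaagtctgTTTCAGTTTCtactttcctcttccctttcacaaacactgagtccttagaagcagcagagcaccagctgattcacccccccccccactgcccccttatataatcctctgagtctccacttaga
Among antigen presentation genes, 20 of 30 genes passed the count limit, and 2 were called higher and 5 lower (median log2 ratio -0.43). H2-D1, a class I heavy chain, was lower, with 140.2, 60.8 and 54.4 (log2 ratio -1.21, shared sequence), and Psmb9, an immunoproteasome subunit, 13.5, 3.69 and 3.67. B2m, the light chain, had 0.57. Over the 4 members with at least 80% single-transcript sequence the list's median was 0.63, so its sign differed when only these were kept.

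Some oxidant defence genes under the factor NRF2 rose. Among NRF2 targets with the thioredoxin and peroxiredoxin systems, 42 of 53 genes passed the count limit, and 11 were called higher and 2 lower (median log2 ratio 0.27). Hmox1, heme oxygenase-1, which degrades heme, had 441, 1488 and 1488 (log2 ratio 1.75, interval 1.72 to 1.79). Slc7a11, which imports cystine for glutathione, had 716, 3006 and 1942 (2.07) and Srxn1, which repairs peroxiredoxins, 259, 822 and 518 (1.67). Gsr, glutathione reductase, and Prdx1, a peroxiredoxin, read 267, 594 and 668 and 745, 1575 and 1326. Nqo1, a quinone reductase, was low in reads (0.498, 2.56 and 5.57) and its highest value was at 24 h.
Several other key members stayed within 2-fold. The rate-limiting glutathione genes Gclc and Gclm had log2 ratios of -0.29 and 0.63, and the factor Nfe2l2 (NRF2) itself -0.28. Txnip, which inhibits thioredoxin, fell to 24.1 from 173 (log2 ratio -2.84), with only 4.35% of its exonic bases in a single transcript.

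Among heme and iron genes, 39 of 52 genes passed the count limit, and 6 were called higher and 3 lower (median log2 ratio 0.01). Slc11a2, an iron importer, had 46.6, 116 and 93.4 (log2 ratio 1.31), and the partly counted transferrin receptor Tfrc 1.28. The ferritin heavy chain Fth1 had 1394, 1132 and 1288 (-0.30) and the iron exporter Slc40a1 267, 234 and 231 (-0.19). Lrp1, a receptor for hemopexin-bound heme, was lower, 1668, 829.8 and 950.2 (log2 ratio -1.01). Slc48a1, which carries heme out of the lysosome, had 0.50, against 1.56 in the nucleus. Among genes of lipid peroxidation and ferroptosis, 3 of 20 were called higher and 1 lower, and Gpx4, the enzyme that reduces lipid peroxides, had -0.19 (partly counted, shared sequence).

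Genes that mark resting microglia were lower more often than higher. Among them, 27 of 40 genes passed the count limit, and 1 was called higher and 8 lower (median log2 ratio -0.54), and the median at 24 h was -0.64. Cd33, an inhibitory sialic acid receptor, had 698, 229.8 and 324 (log2 ratio -1.60, interval -1.66 to -1.55), and Trem2, a lipid-sensing receptor, 23.8, 5.37 and 7.82 (-2.15). P2ry13, a nucleotide receptor, read 7.06, 2.44 and 2.44. Tmem119, a marker of resident microglia, had 0.99, just short of the size threshold, and the lineage factor Spi1 0.68.

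Genes of the disease-associated microglial state did not move as 1 group, with 3 of 31 called higher and 9 lower. The raised ones included the chemokines Ccl3 and Ccl4 above, while Itgax, an integrin (121, 32.4 and 39.2), Atp6v0d2, a proton pump subunit (423, 88.5 and 87.4), and Lpl, lipoprotein lipase (2777, 1387 and 1038), were lower. The list's median relative to all genes turned from below to above 0 when only the 10 members with at least 80% single-transcript sequence were kept. Cst7 and Fabp5 had log2 ratios of -0.03 and 0.10. Cd68 read 2.17, 24.5 and 27.6, from 16.8% single-transcript sequence.

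Receptors for uptake of debris fell more often than they rose. Among phagocytic and scavenger receptors, 24 of 41 genes passed the count limit, and 3 were called higher and 8 lower (median log2 ratio -0.57). Cd93, a receptor linked to clearing of apoptotic cells, had 2870.2, 958 and 999 (log2 ratio -1.58, interval -1.61 to -1.56), and Mrc1, the mannose receptor, 5.98, 1.5 and 1.37 (-1.99). Msr1, the class A scavenger receptor, went the other way with 49.8, 193 and 111 (1.95). Fc receptors stayed within 2-fold, Fcgr1 at 0.74 and Fcgr4 at 0.44.
Among lysosomal genes other than cathepsins, 50 of 54 genes passed the count limit, and 3 were called higher and 10 lower (median log2 ratio -0.42), against a nuclear median of 0.00. Man2b1, a mannosidase, had 199, 63.7 and 74.5 (log2 ratio -1.64), Scarb2, a lysosomal membrane protein, 268, 121 and 133, and Tfeb, the factor that drives lysosomal genes, 4.89, 1.5 and 1.91 (-1.71). Of 14 cathepsin genes and inhibitors compared, 1 was called higher and 3 lower. Ctsb had -0.19, Ctsz 0.69, and Ctsf -3.42, while Cstb, a cathepsin inhibitor, was higher (123, 423 and 392; 1.78).

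**Figure D3:**
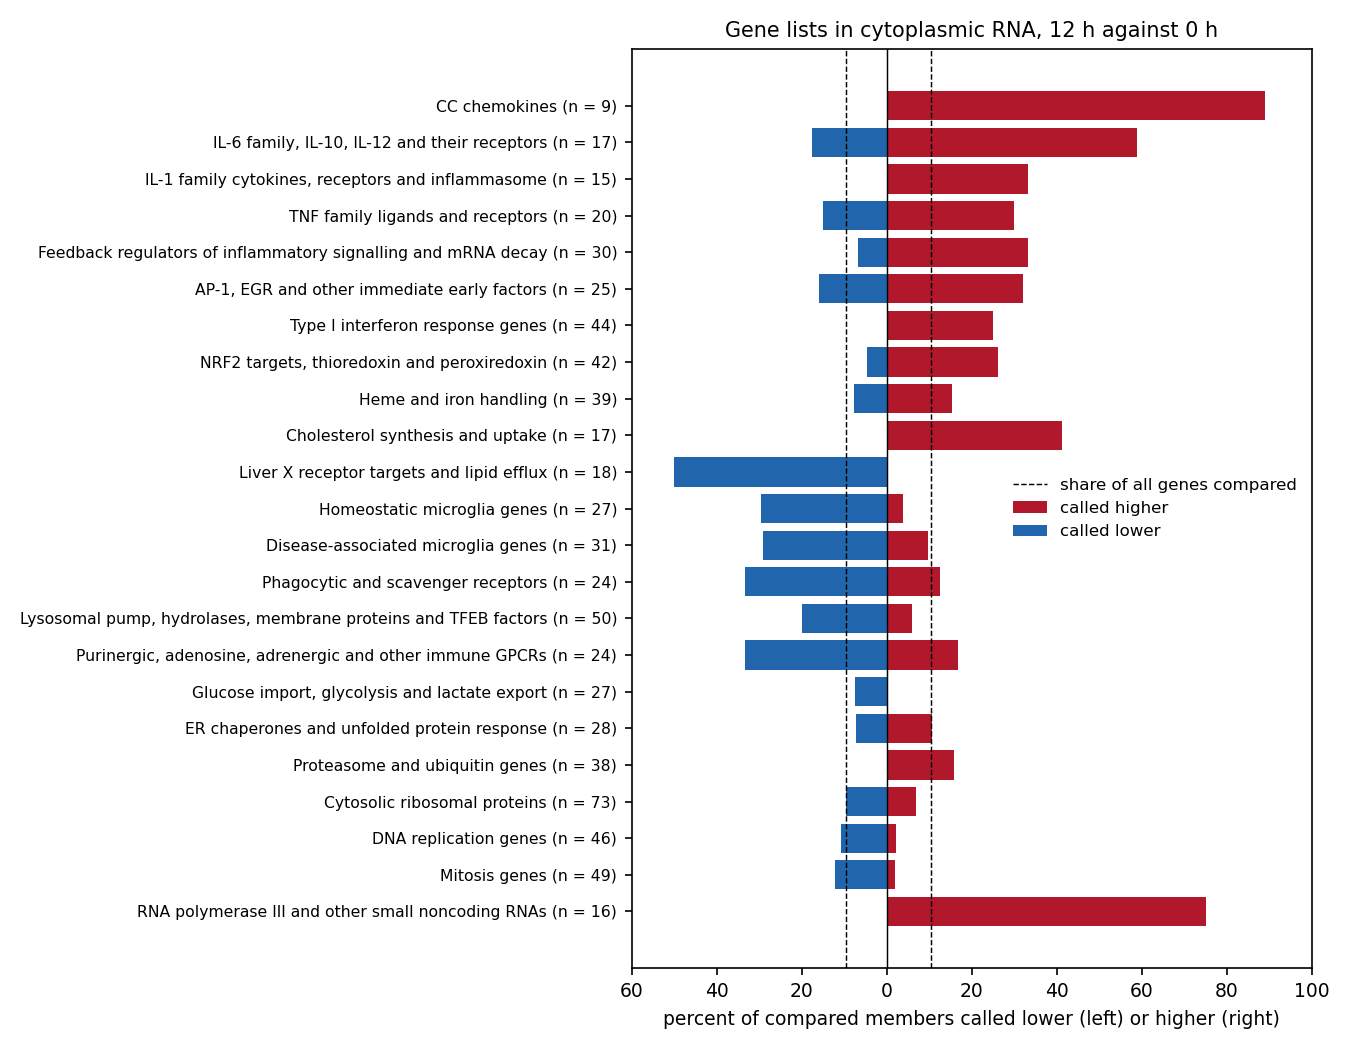
Share of compared members called higher (red, right) or lower (blue, left) at 12 h for 23 gene lists, with the number compared; dashed lines mark the share of all genes compared, 10.5% and 9.7%. CC chemokines have the largest share higher and the list of liver X receptor targets and lipid efflux the largest share lower among the lists drawn.

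Genes of cell surface signalling that respond to nucleotides, adenosine and lipids included large decreases. Among these receptors and their regulators, 24 of 39 genes passed the count limit, and 4 were called higher and 8 lower (median log2 ratio -0.47). Gpr183, which senses oxysterols, had 89.2, 9.87 and 10.9 (log2 ratio -3.18, interval -3.42 to -2.94), and S1pr1, a sphingosine phosphate receptor, 60.4, 15.8 and 20.4 (-1.93). The signalling regulator Rgs2 fell as well (228, 44.5 and 42.2; -2.36). In contrast the adenosine receptor Adora2b had 19.5, 65.3 and 34.6 (1.75) and Adora2a 0.679, 5.0 and 2.88. Ltb4r1, the leukotriene B4 receptor, read 0.136, 5.12 and 7.04. Cxcr4, which responds to Cxcl12, was lower, with 19.1, 3.0 and 3.72. Itga4, an integrin subunit used in adhesion to vessels, was lower (930.3, 331 and 401; -1.49).

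Genes of cholesterol synthesis and uptake were called only higher, and the list of liver X receptor targets and lipid efflux only lower. Of the cholesterol synthesis and uptake genes, 7 of the 17 that passed (of 27) were called higher and 0 lower (median 0.94). Hsd17b7 had 16.9, 73.2 and 58.1 (log2 ratio 2.11), Msmo1, an oxidase of the pathway, 4.44, 21.2 and 13, and Insig1, which senses sterols and holds the pathway back, 133, 298 and 229 (1.16). Of the liver X receptor targets and lipid efflux genes, 0 of the 18 that passed (of 24) were called higher and 9 lower (median -0.99, -1.0 over the 5 with at least 80% single-transcript sequence). In the nucleus 0 of them were called higher and 5 lower, against 9.73% and 3.09% of genes compared in both fractions. The nuclear median of these genes was -0.12 and that of all genes 0.12. The lowest member of the list was the oxysterol receptor Gpr183 (-3.18), which is also counted among the receptors above. Abca9, a lipid transporter, fell (121, 24.8 and 53.3, log2 ratio -2.29), and so did Soat1, which esterifies cholesterol (777, 322 and 352, -1.27). The efflux pumps Abca1 and Abcg1 had -0.99 and -0.89 and were not called. Abcd2, a peroxisomal fatty acid transporter, was lower as well (226, 28.6 and 63.1; -2.99), and Cpt1a, which admits fatty acids to mitochondria, had 72.9, 18.7 and 28.1 (-1.97). Fatty acid synthesis genes gave 1 higher and 2 lower of 24.

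Among glucose import and glycolysis genes, 27 of 37 genes passed the count limit, and 0 were called higher and 2 lower (median log2 ratio -0.01), with Hk2, hexokinase 2, at 0.15 (partly counted) and Egln3, an oxygen sensor, at 0.10. The lower ones were Pdk1, which limits pyruvate entry to mitochondria (194, 81.7 and 88), and Ndrg1 (1220.1, 468 and 392; log2 ratio -1.38). G6pdx, the first enzyme of the pentose phosphate pathway, rose (289, 667 and 631; 1.21, partly counted), and Odc1, for polyamine synthesis, rose too, at 2.22 (partly counted, shared sequence). Among nuclear-encoded oxidative phosphorylation genes, 46 of 71 genes passed the count limit, and 5 were called higher and 3 lower (median log2 ratio -0.04). The highest ratios without partial counting were those of the complex I subunit genes Ndufa13 (2.06), Ndufa1 (1.65) and Ndufa2 (1.40). The mitochondrial ribosomal RNA mt-Rnr1 read 133, 1382 and 1218 and mt-Rnr2 11131, 19657 and 16735, whereas mt-Co1 had -0.61 with shared sequence. Of 14 mitochondrially encoded genes compared, 1 was called higher, mt-Rnr1, and 3 lower, mt-Atp6, mt-Co3 and mt-Nd3 (median 0.02).

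Among endoplasmic reticulum chaperone and unfolded protein genes, 28 of 31 passed the count limit. Of these, 3 were called higher and 2 lower (median log2 ratio 0.23). In the nucleus 13 of the 28 were called higher and 0 lower, against 9.73% and 3.09% of genes compared in both fractions. Creld2 and Sdf2l1, induced by unfolded proteins, had 35, 94.5 and 59.2 and 104, 261 and 208 (log2 ratios 1.44 and 1.33). Ddit3, the stress factor CHOP, had 31.1, 66.7 and 41.9 (1.10), and Atf4 -0.38 (partly counted). Among heat shock genes 1 of 21 was called higher, the partly counted Dnajb1, and 0 lower, and Hspd1 had 0.33 (shared sequence). Among proteasome and ubiquitin genes, 38 of 39 genes passed the count limit, and 6 were called higher and 0 lower (median log2 ratio 0.47), with Psma4 (1.60, shared sequence) and Psmb2 (1.55) among the higher. Of 25 p53 and apoptosis genes, 7 were called higher and 1 lower, 3 of the 7 being copies of the survival gene Bcl2a1 with shared sequence. Bcl2 had 251, 126 and 148 (log2 ratio -1.0).

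Among cytosolic ribosomal protein genes, 73 of 83 genes passed the count limit, and 5 were called higher and 7 lower (median log2 ratio -0.38), and 8 of the 12 called had shared sequence. Rpl30, a subunit protein of the large ribosome, had 343, 40.9 and 193 (log2 ratio -3.07, interval -3.19 to -2.96), and its 24 h value lay between the other 2. It was partly counted, and its nuclear log2 ratio was -0.02. Among translation factors 1 of 47 was called higher and 2 lower. Eef1a1, which delivers tRNA to the ribosome, fell to 3230.2 from 7674 (-1.25; partly counted, shared sequence), Eef2 had -0.43 (shared sequence) and Eif4b -0.75.

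DNA replication and mitosis genes were seldom called higher, and were called lower about as often as all genes compared (10.5% higher and 9.7% lower). Among DNA replication genes, 46 of 56 genes passed the count limit, and 1 was called higher and 5 lower (median log2 ratio -0.29). Among mitosis genes, 49 of 55 genes passed the count limit, and 1 was called higher and 6 lower (median log2 ratio -0.45). Mki67, a proliferation marker, had 896, 514 and 723 (log2 ratio -0.80), Cdk1, the mitotic kinase, 13.5, 6.25 and 7.82 (-1.11), and Rb1, which restrains entry to S phase, 208, 85.9 and 125 (-1.27). Mcm2 and Top2a had -0.24 and -0.30. The G1 cyclins Ccnd1 and Ccnd2 had -0.23 and 0.12.

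Short noncoding RNAs were the class most often higher. Of the RNA polymerase III and other small RNAs, 12 of the 16 that passed (of 37) were called higher and 0 lower, with a median log2 ratio of 2.54. The Y RNAs Rny1 and Rny3 had 9.64, 354 and 354 and 49.5, 1165 and 1142 (log2 ratios 5.20, with shared sequence, and 4.56), and the vault RNA Vaultrc5 7.02, 111 and 104. Rn7sk, which holds back the elongation factor P-TEFb, read 5099, 13237 and 11364 (shared sequence). Of small nucleolar and Cajal body RNA genes, 31 of 48 were called higher and 0 lower. Among pseudogenes 30.6% were called higher against 7.0% of nuclear-encoded protein-coding genes, and 887 of 1026 pseudogenes had shared sequence. The summed level of 6 nuclear RNA markers was 7203, 15763 and 15488, and Rn7sk and Rpph1, the RNA of RNase P, carried its rise. The long nuclear RNAs stayed within 2-fold: Malat1 had 1642, 1692 and 2779 (log2 ratio 0.04), Neat1 -0.30 and Kcnq1ot1 -0.27.
Length moved with these calls. When protein-coding genes were split into 5 equal groups by exonic length, 14.4% of the shortest group and 3.74% of the longest were called higher, with median log2 ratios of 0.11 and -0.24. In the nucleus the corresponding medians were 0.37 and -0.02. The part of RNA length or library composition in the other results was not tested.

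**Figure D4:**
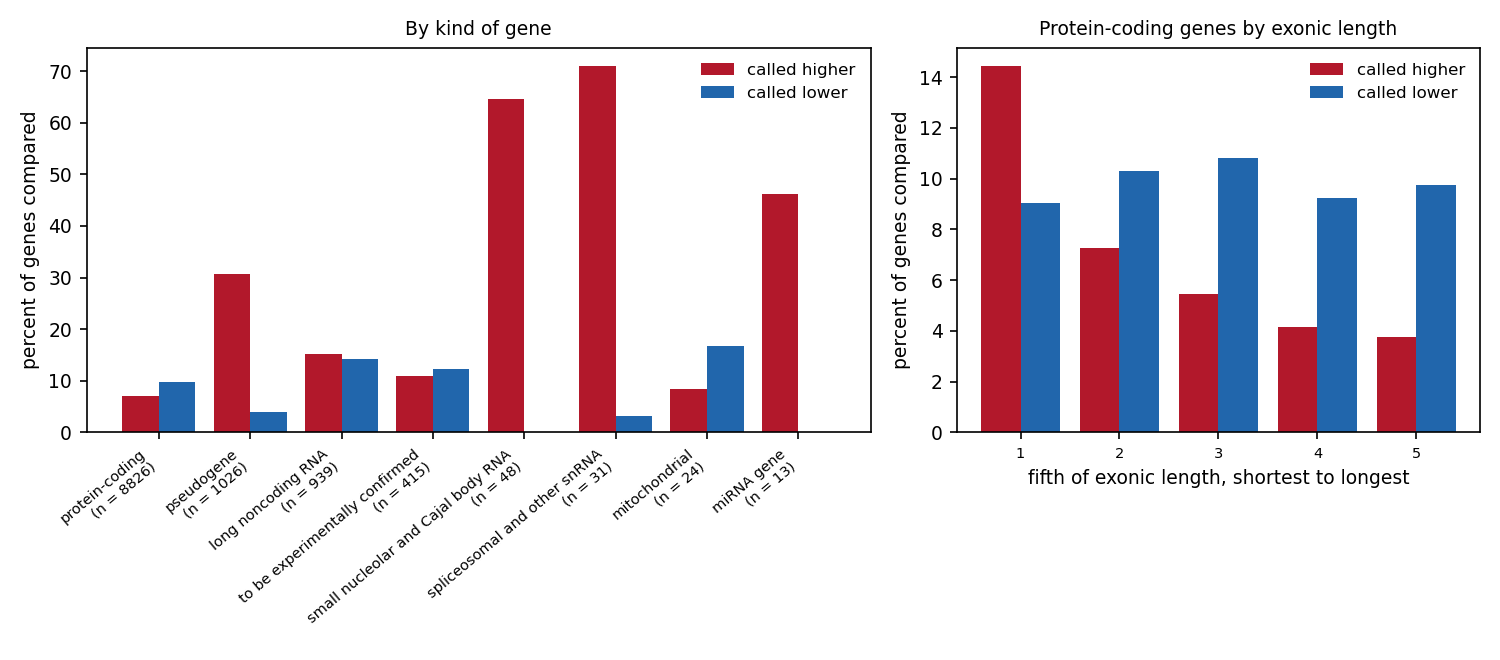
Share of genes called higher or lower at 12 h by kind of gene (left; the 8 kinds with the most genes compared) and by 5 equal groups of exonic length of protein-coding genes (right), bars from 0. Small nucleolar, small nuclear and miRNA genes and pseudogenes have the largest shares higher, and the share higher falls from the shortest to the longest group.

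Some RNAs of other tissues were highest in the 12 h column. Actc1, cardiac muscle actin, was listed at 0, 23.1 and 0.0489 at 0, 12 and 24 h, at least 169.7-fold higher at 12 h than the floor of 3 reads over the 0 h group. Col1a1 and Col3a1, fibrillar collagens of fibroblasts, had 0, 2.81 and 0.0978 and 0, 2.5 and 0. Over the 16 muscle and heart markers the summed level was 1.49, 31.2 and 4.06, with 13 at 0 in the 0 h column and 2 at 12 h. For the 8 fibroblast markers it was 0.0906, 6.93 and 0.587, with Dcn, Pdgfra and Pdgfrb at 0 in all 3. The summed markers of astrocytes, erythroid cells and lymphocytes reached at most 1.12, 0.75 and 0.831, and the neuronal Snap25 and Rbfox3 were at 0. The endothelial list read 444, 354 and 397, nearly all from Flt1. Its other members were low and went the other way, higher at 12 h than at 0 h. Cdh5 read 0.362, 2.12 and 0.391, and Kdr 1.18, 3.69 and 4.99. Pecam1 read 0.226, 0.937 and 0.733, and Cldn5 0, 0.0625 and 0. The oligodendrocyte list read 9.19, 4.69 and 12.8, nearly all from Mbp. Actc1 was at 0 in the nucleus at 0 and 12 h. The part of such RNA in the other 12 h results was not tested.

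The nuclear libraries showed many of the same increases and fewer of the decreases. Of 10687 genes compared in both fractions, 9.73% were called higher and 3.09% lower in the nucleus. Among the 977 of these called higher in cytoplasm, 459 (47.0%) were called higher in the nucleus and 5 lower. Of the 1006 called lower in cytoplasm, 214 (21.3%) were called lower in the nucleus and 5 higher. Of the genes called in the nucleus, 44.1% of the higher and 64.8% of the lower had the same call in cytoplasm. Across genes, which are not independent replicates, Pearson's r of the 2 log2 ratios was 0.65. The fall of Gpr183, Igf1 and Cxcr4 was present in the nucleus too (log2 ratios -1.66, -1.57 and -2.75).

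Directly compared, the cytoplasmic log2 ratio exceeded the nuclear one by at least 2-fold in 555 genes (5.19%) and fell below it in 938 (8.78%). The fractions were scaled separately, and the median log2 ratio of the 10687 genes was -0.08 in cytoplasm and 0.12 in the nucleus. The part of this offset in the counts above and below was not tested. The largest differences above were Rhoc, a small GTPase of cell movement (3.89), and Proser3 (3.38), both partly counted. Atp6v0c, the proton pump ring subunit, was not: it had 11.5 and 58.5 in cytoplasm at 0 and 12 h against 109.6 and 108 in the nucleus (difference 2.38). Csf3, Il1b and Il1a were further raised in cytoplasm than in nucleus, by 1.78, 2.09 and 1.18. Below the nuclear ratio stood Rpl30 (-3.05), Macrod1 (-1.86) and Sgpp2, a sphingosine phosphate phosphatase (-2.17). Ahnak, a very large scaffold protein, fell from 3232 to 873 in cytoplasm (log2 ratio -1.89) with -0.37 in the nucleus. Eef2 and Tubb5, a tubulin, had -0.43 and -0.38 in cytoplasm and 0.84 and 0.97 in the nucleus.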

How the data were processed

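RNA of BV2 nuclear and cytoplasmic fractions was sequenced in 18 libraries. The submitters' processing notes name HISAT2 2.2.0, featureCounts, DESeq2 and the build GRCm38. How strand was set in counting, and from which annotation, is not given in the sources used here. In the authors' count table there is 1 column per group, read as the mean of 3 libraries because all values were whole (within 0.001) after multiplying by 3. The authors also deposited TPM per group. No per-library values were used (0 per-sample columns left out), so the planned count test was replaced by ratios of means.

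Ratios used TMM scaling within each fraction's 3 columns (trims of 30% and 5%), computed with scipy 1.17.1, pandas 2.3.3 and numpy 2.4.6 under Python 3.11.15, and plotted with matplotlib 3.10.9. Intervals are exact Clopper-Pearson at 95% on summed reads; the difference between fractions has a normal interval. A column at 0 was set to a floor of 3 reads over the group, 0.136 scaled CPM at 0 h and 0.187 at 12 h. The calling steps were run on simulated counts with known folds. That simulation held counting error only, so it says nothing about differences between cultures or about shared sequence. Symbols, classes and single-transcript bases came from GENCODE M21 on GRCm38, which held 11338 of the 11351 identifiers compared. Promoter sequences came from RefSeq on GRCm38.p6. Shared sequence means 31-base words found in another gene.

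Named genes were the 20 highest and 20 lowest called (mean of at least 5 scaled CPM), up to 10 at 0 in 1 column, key members and up to 4 called members per direction (mean of at least 1 scaled CPM) of 58 lists, the extremes of symbol families and of the fraction difference (10 each way), and the 15 largest gains and losses. The comparison, lists and rule were chosen with earlier results of these data known. Alternatives were total-count and median-of-ratios scaling, log2(TPM + 1), other count and size limits, protein-coding genes only, and members without overlaps. Added after seeing the data were single-transcript limits and TPM without genes under 200 bases. A few named genes are not reported here.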

Additional observations from a re-analysis of the deposited data

How the results depend on the processing

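No per-library values were used, so no replicate could be left out, and no result was checked against the spread between cultures. No paired analysis was possible because the table gives 1 mean per group. Genes called higher and lower moved from 1194 and 1101 to 372 and 2270 with log2(TPM + 1), and to 550 higher with TPM rescaled without genes under 200 bases (962 lower). In TPM, miRNA genes held 8.09% of the total of the columns at 0 h and 28.5% at 12 h. With at least 30 counts they were 636 and 674, with 1 read 2453 higher, at 1.5-fold 2097 and 2391, and at 4-fold 395 and 188. Protein-coding genes gave 618 higher. Single-transcript sequence of at least 80% gave 669 and 313, and at least 50% with under 20% shared sequence 579 and 542. The share of called genes that were higher, 52.0%, was 14.1% with log2(TPM + 1), 36.4% without short genes, 68.1% at 80% single-transcript sequence and 41.5% in protein-coding genes. Total-count and median-of-ratios scaling kept both counts within 1.5 times. Among the 711 named genes, no alternative changed the sign of one that was called, and 155 fell under the threshold with log2(TPM + 1). Named genes without a call were checked for reaching the threshold but not for sign, and 72 reached it with log2(TPM + 1). The median of a gene list relative to all genes changed sign in 9 of 55 lists at 80% single-transcript sequence. Of 56 lists it did so in 9 with log2(TPM + 1), 8 without short genes, 5 without overlaps, 4 at 1 read and 0 with the other scalings, and in 5 of 54 at 30 counts. Among lists with calls mostly in 1 direction this held for disease-associated genes (0.11) and MHC genes (0.70) at 80% single-transcript sequence, for iron genes without overlaps (-0.10), for phagocytic receptors at 1 read (0.025), and for pattern receptors at 30 counts (-0.023), with log2(TPM + 1) (-0.040) and without short genes (-0.021). The others at 80% single-transcript sequence were ferroptosis (0.39), fatty acid synthesis (0.20), cathepsins (0.053), histones (-0.045), G1 cyclins (0.57, 2 members), and interferon regulatory factors (0.37) and GTPases (-0.046) with 1 member each. Colony-stimulating factors changed to -0.21 without overlaps. The cause was not tested beyond the construction of each alternative.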

Other observations

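Neighbouring genes were at times called in the same direction. On chromosome 11 the adjacent compared genes Ccl6, Ccl3, Ccl4 and Wfdc17 were all higher, with log2 ratios from 1.02 to 3.24. On chromosome 2, Gm14023, Il1a, Il1b and the pseudogene Spcs2-ps were all higher (1.66 to 8.91). On chromosome 1, Ptgs2, its antisense genes Ptgs2os and Ptgs2os2 and the pseudogene Rbm3-ps were higher (1.40 to 4.05), where reads of a gene and its antisense partner cannot be told apart without strand. In the opposite direction, the lipid transporter genes Abca9, Abca6 and Abca5 and the potassium channel gene Kcnj2 on chromosome 11 were all lower (-3.04 to -1.52).

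Symbol families gave further counts against 10.5% higher and 9.7% lower of all genes. The kinesin motor genes (Kif) had 0 of 26 called higher and 8 lower, and the receptor genes with the symbol Gpr 3 of 20 higher and 7 lower. Zinc finger genes (Zfp) had 3 of 217 higher and 15 lower. Genes with the symbol Hist had 1 of 56 higher and 2 lower, with Hist1h2aj the lowest (log2 ratio -2.25). The separate list of replication-dependent histone genes had 54 compared, of which 1 was called higher and 0 lower. The median log2 ratio of that list was -0.07 in cytoplasm and 0.71 in the nucleus.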
